A study of Mus musculus with 12 samples.

Results

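Matrix metalloproteinases (MMPs) are zinc-dependent enzymes that cut collagens, proteoglycans and other parts of the extracellular matrix, and that also release growth factors and shed proteins from the cell surface. Most are made as inactive precursors. Tissue inhibitors of metalloproteinases (TIMPs) bind the active enzymes and block them, and TIMP2 also takes part in the activation of pro-MMP2 by the membrane-bound MMP14. ADAMTS enzymes are related secreted proteases with thrombospondin repeats, and ADAMTS1 cuts the proteoglycans aggrecan and versican. Mesenchymal stromal cells (MSCs) both lay down and remodel matrix, and they use these enzymes when they migrate.

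The mRNA of 10 genes of this system was examined: the metalloproteinases Mmp2, Mmp3, Mmp11, Mmp13, Mmp14 and Mmp19, the inhibitors Timp1, Timp2 and Timp3, and Adamts1. They were picked by symbol from the 55487 genes of the count table, with earlier results of these data known. The shares of them that pass below are therefore descriptions and no test of enrichment. All 10 were among the 11314 protein-coding genes with enough counts to be tested. The cells were primary bone marrow MSCs of wild-type C57BL/6 mice, taken from the femurs of females and expanded in culture. In 4 samples the MSCs were left untreated (labelled Negative, here the control), in 4 they received 50 µM A1 for 6 hours, and in 4 they received 50 µM A1 together with 1 mg/mL ovalbumin for 6 hours (A1-OVA). A1 is a variant of Accum, a bile acid joined to a nuclear localization signal peptide, and ovalbumin (OVA) is a model antigen from egg white. No group received ovalbumin alone, so A1-OVA could be set against A1 and against the control only. The samples are not tied to separate animals or cultures by their labels, so the p-values measure the spread between these samples, which may be technical. Pairs of samples within a group differed by 2.18 to 9.0 times the variance that counting gives. In each group some pairs were closer than the rest: control replicates 3 and 4 (2.18 times), A1 replicates 1 and 3 (2.88) and 2 and 4 (3.41), and A1-OVA replicates 1 and 2 (2.5) and 3 and 4 (3.96), where all other pairs differed by 4.32 times or more. If the samples of such a pair share a culture, the p-values are too small.

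Library totals ranged from 15644991 to 16881995 counts in the control, from 13702348 to 14347870 with A1 and from 14359973 to 16674294 with A1-OVA, so every A1 library was shallower than every control library. With all libraries thinned to 13702348 counts, the numbers of the 10 genes called below did not change. Levels are given as CPM, counts scaled to a common library total, with edgeR's TMM library sizes, which corrects for depth. Genes are compared with each other only as RPKM, which also divides by exon length in kilobases. The median log2 fold change of all tested genes was -0.002 for A1 against the control, 0.004 for A1-OVA against the control and 0.006 for A1-OVA against A1. These medians depend on the TMM scaling and are no separate check of it. The TMM factors differed by group, at 1.0265 to 1.0418 in the control, 0.9745 to 0.9882 with A1 and 0.9819 to 0.9932 with A1-OVA. Small fold changes against the control therefore depend on the scaling. Of the MSC markers, Cd44, Itgb1 and Pdgfra were well detected, while the genes of 2 surface markers used to define such cells were close to absent: Nt5e (CD73) had 7 to 14 counts in a library and Thy1 (CD90) had 0 to 17, with at most 3 in every library other than control replicate 2. The study assessed CD44, CD45, CD73 and CD90 on its MSCs as surface protein, by flow cytometry, which these mRNA counts do not measure. By these 4 proteins it described the phenotype of the cells as unchanged with A1. The summed level of the 8 MSC markers was 2210 to 2400 CPM in the control, 3120 to 3330 CPM with A1 and 2940 to 3170 CPM with A1-OVA. The markers that moved did so in both directions. With A1, Itgb1 rose from 1451 to 2225 CPM and Cd44 from 175 to 458 CPM, while Pdgfra fell from 247 to 125 CPM and Ly6a from 35.1 to 23.3 CPM (group means). Pdgfrb (389 and 387 CPM, adjusted p = 0.867), Eng (9.40 and 9.09 CPM, adjusted p = 0.662) and Nt5e (adjusted p = 0.0811) did not pass edgeR's test with A1. The summed level of 10 macrophage markers was 10.8 to 11.9 CPM in the control, 15.5 to 17.9 CPM with A1 and 12.9 to 15.5 CPM with A1-OVA, with Tyrobp at 0 in every library and Ptprc (CD45) at 0 to 4 counts. Most of that sum was Cd14, which rose from a mean of 7.59 to 11.3 CPM with A1, and Mrc1, which rose from 1.48 to 3.01 CPM, whereas Cd68 did not pass the test (1.52 and 1.41 CPM, adjusted p = 0.694). The part of these markers in the results was not tested. The 8 neutrophil markers summed to 2.38 to 3.07 CPM in the control, 1.52 to 2.25 CPM with A1 and 1.58 to 2.22 CPM with A1-OVA, nearly all of it Camp, with S100a8, S100a9, Elane and Ltf at 0 in every library. The 6 endothelial markers summed to less than 1 CPM in every library. In bulk RNA, fewer cells expressing a gene and less of its mRNA per cell cannot be told apart.

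The promoters of Mmp13 and Mmp3 are shown first because these genes lie close together and share the same pair of short motifs. Mmp13 rose with A1, while Mmp3, at 10 to 26 counts in a library, did not pass the test given below. The 2 genes were not compared by a test. The promoter of Mmp10, a stromelysin gene of the same cluster, and that of Adamts1 are shown as well. Sequences are from RefSeq (GRCm38.p6) and cover the 120 bases upstream of the annotated start, 5′ to 3′ on the gene's strand. Capitals mark TGANTCA, the core of the site bound by AP-1 factors, and TATAAA, the TATA box core. Mmp13 is chr9:7272394-7272513 on the plus strand, Mmp3 is chr9:7445702-7445821 on the plus strand, Mmp10 is chr9:7502222-7502341 on the plus strand and Adamts1 is chr16:85803114-85803233 on the minus strand.
Mmp13: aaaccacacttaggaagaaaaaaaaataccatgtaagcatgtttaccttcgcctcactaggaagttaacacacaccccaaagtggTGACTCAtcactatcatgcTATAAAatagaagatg
Mmp3: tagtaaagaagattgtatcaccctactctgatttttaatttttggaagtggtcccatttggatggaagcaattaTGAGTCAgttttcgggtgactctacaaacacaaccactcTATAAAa
Mmp10: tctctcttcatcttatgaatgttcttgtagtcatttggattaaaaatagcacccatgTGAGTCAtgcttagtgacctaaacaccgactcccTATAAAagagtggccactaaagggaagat
Adamts1: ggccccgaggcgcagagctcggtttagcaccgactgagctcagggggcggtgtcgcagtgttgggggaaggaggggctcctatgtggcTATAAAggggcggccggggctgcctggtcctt
Both motifs were searched on both strands from 250 bases before to 50 bases after the start. Promoters were held for 8 of the 10 members, Mmp2 and Mmp19 being the others. TGANTCA was found in 2 of the 8, Mmp13 and Mmp3, where it began 35 and 46 bases before the start, and in 7.81% of 32851 promoters of all genes. TATAAA was found in 3 of the 8, Mmp13, Mmp3 and Adamts1, where it began 16, 7 and 32 bases before the start, and in 13.6% of all promoters. These are letter matches and not measured binding sites. The distances count from the annotated starts, which were not checked in these cells.

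The response of the 10 genes to A1 was assessed first. With A1, the collagenase Mmp13, the membrane-type Mmp14 and all 3 inhibitors, Timp1, Timp2 and Timp3, rose, while Mmp11, Mmp19 and Adamts1 fell. Mmp2 and Mmp3 did not pass the test. Thus 8 of the 10 passed at an adjusted p under 0.05 (edgeR quasi-likelihood test, Benjamini-Hochberg over all tested genes), where 62.7% of all tested genes passed (31.7% higher, 31.1% lower), so the count alone is not a result about these genes. With a log2 fold change of at least 0.5 in either direction required as well, 5 of the 10 were differentially expressed genes (DEGs), against 21% of all tested genes. The median log2 fold change of the 10 was 0.15.

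**Figure D1:**
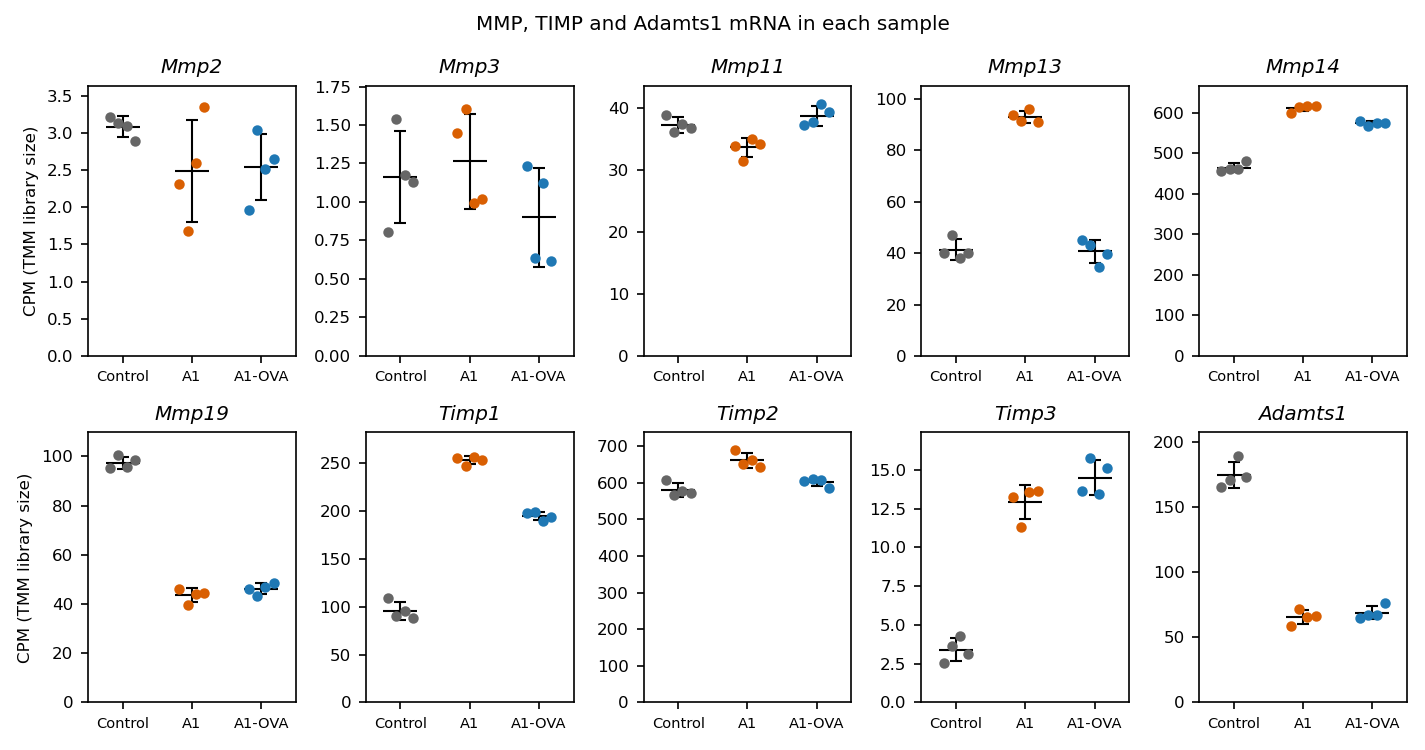
Level of each gene in every sample, in CPM on axes that start at 0, for control, A1 and A1-OVA MSCs. Points are samples (n = 4 a group), the wide dash is the mean and the bars are ± 1 SD. Mmp13 is about 93.1 CPM with A1 and about 41 CPM in the other two groups, whereas Mmp19, Timp3 and Adamts1 have like levels in both A1 groups.

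Mmp13 codes for collagenase 3, which cuts fibrillar collagens. The gene (ENSMUSG00000050578) lies at chr9:7272514-7283331 on GRCm38. Its level was 40.2, 47.2, 38.2 and 39.9 CPM in control replicates 1 to 4. It was 93.9, 91.5, 96.0 and 90.8 CPM with A1. With A1-OVA it was 45.2, 43.1, 34.7 and 39.8 CPM. All A1 samples were thus above all control and A1-OVA samples, and the latter groups overlapped. Mmp13 rose by 1.17 on the log2 scale with A1 (SE 0.067, 95% confidence interval 1.03 to 1.31, adjusted p = 1.85e-12), or 2.25-fold. With A1-OVA, in contrast, it was not different from the control by this test, with a log2 fold change of -0.03 (95% interval -0.18 to 0.12, adjusted p = 0.763). The direct comparison of A1-OVA with A1 gave a log2 fold change of -1.20 (SE 0.068, 95% interval -1.34 to -1.05, adjusted p = 2.66e-10), which was 2.29-fold lower. By p-value Mmp13 ranked 2 of the 11314 genes in that comparison, and by the size of its fold change it ranked 12.

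Mmp3 codes for stromelysin 1, which cuts proteoglycans and activates other pro-MMPs. It was rare in these cells, at 13 to 26 counts in the control libraries, 13 to 21 with A1 and 10 to 17 with A1-OVA. Its level was 0.805, 1.54, 1.18 and 1.13 CPM in the control. A1 samples had 1.45, 1.60, 0.992 and 1.02 CPM, and with A1-OVA it was 1.23, 0.633, 1.12 and 0.616 CPM. The 3 groups overlapped. The log2 fold change was 0.12 with A1 (95% interval -0.43 to 0.67, adjusted p = 0.721) and -0.39 with A1-OVA (95% interval -0.97 to 0.19, adjusted p = 0.239), and the A1-OVA to A1 difference was -0.51 (95% interval -1.10 to 0.09, adjusted p = 0.26). At this depth, a change of the size seen for Mmp13 with A1 lay outside the Mmp3 interval with A1. Changes from -0.43 to 0.67 lay within it.

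Mmp13 and Mmp3 belong to a cluster of 9 protein-coding MMP genes that spans 427 kb on chromosome 9, and the 2 are 162 kb apart. Of the cluster, only Mmp13, Mmp3 and Mmp10 had enough counts to be tested. Mmp10, stromelysin 2, lies 46.4 kb beyond Mmp3. Its counts were 3, 3, 0 and 2 in the control libraries, 21, 29, 18 and 23 with A1, and 17, 6, 8 and 14 with A1-OVA. The groups did not overlap between control and A1-treated cells of either kind, while A1 libraries were all above the A1-OVA libraries. Summed over libraries and corrected for depth, Mmp10 was 13.8 times the control with A1 (95% counting interval 6.71 to 32.9) and 6.01 times with A1-OVA (2.81 to 14.8). The A1-OVA level was 0.436 times the A1 level (0.298 to 0.63). These intervals cover counting error only. The test across all genes called all 3 differences (adjusted p = 2.43e-07, 3.27e-04 and 0.0122). The cluster genes Mmp1b, Mmp7 and Mmp20 had no count in any library, and Mmp8 and Mmp12 had at most 1 and 2.

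Mmp14 codes for the membrane-type enzyme MT1-MMP, a pericellular collagenase that activates pro-MMP2. It was the most abundant of the 6 MMP mRNAs in every group, with 77.9 ± 1.75 RPKM in the control (SD, n = 4). Its level was 456, 460.3, 461 and 480 CPM in the control. The A1 samples stood at 599, 613, 616 and 617 CPM, and with A1-OVA it was 580, 568, 575 and 575 CPM. The 3 groups did not overlap one another. Mmp14 rose by 0.40 on the log2 scale with A1 (SE 0.033, adjusted p = 8.64e-10) and by 0.31 with A1-OVA (SE 0.033, adjusted p = 5.57e-08). Both changes lay below the DEG threshold. The A1-OVA to A1 difference of -0.09 (95% interval -0.16 to -0.02) did not pass after adjustment (adjusted p = 0.0764), but passed with DESeq2 (-0.09, adjusted p = 0.019).

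Mmp2, gelatinase A, cuts denatured collagen and collagen IV and is a known substrate of MMP14. It was scarce, with 22 to 53 counts in a library. Its level was 3.22, 3.13, 3.09 and 2.88 CPM in the control. In A1 samples it was 2.31, 1.68, 2.60 and 3.34 CPM, and with A1-OVA it was 1.96, 3.04, 2.51 and 2.65 CPM. The A1 samples spread most, from below to above the whole control range. The log2 fold change of -0.31 with A1 (95% interval -0.68 to 0.06, adjusted p = 0.137) did not pass, although it was -0.49 with an adjusted p of 0.0267 without A1 replicate 4 and -0.16 with an adjusted p of 0.435 without A1 replicate 2. With A1-OVA it was -0.27 (adjusted p = 0.186). The A1-OVA to A1 difference was 0.04 (95% interval -0.35 to 0.43, adjusted p = 0.925).

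Mmp11, stromelysin 3, is an MMP that is activated by furin inside the cell. Its level was 39.0, 36.1, 37.4 and 36.7 CPM in the control. With A1 it was 33.9, 31.5, 35.1 and 34.3 CPM, and with A1-OVA it was 37.3, 37.7, 40.7 and 39.3 CPM. A1 samples were below all others, and the control and A1-OVA samples overlapped. It fell by 0.15 on the log2 scale with A1 (SE 0.053, adjusted p = 0.0191), and was 0.20 higher with A1-OVA than with A1 (SE 0.053, adjusted p = 0.0143). Both calls were lost when 1 of 2 libraries was left out. For A1 against the control these were control replicate 1 (adjusted p = 0.0545) and A1 replicate 2 (adjusted p = 0.08), and for A1-OVA against A1 they were A1 replicate 2 (adjusted p = 0.0539) and A1-OVA replicate 3 (adjusted p = 0.0502). A1-OVA differed from the control by 0.06 (95% interval -0.05 to 0.16, adjusted p = 0.373).

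Mmp19 codes for a secreted MMP that cuts basement membrane proteins. Its level was 95.4, 100.5, 95.7 and 98.6 CPM in the control. With A1 it was 46.3, 39.8, 44.3 and 44.7 CPM, and with A1-OVA it was 46.2, 43.3, 46.9 and 48.4 CPM. Treated and control samples did not overlap, whereas A1 and A1-OVA samples did. Mmp19 fell by 1.16 on the log2 scale with A1 (SE 0.049, adjusted p = 1.35e-14) and by 1.08 with A1-OVA (SE 0.048, adjusted p = 3.57e-14), which was 2.23- and 2.11-fold lower. The A1-OVA to A1 difference was 0.08 (95% interval -0.03 to 0.19, adjusted p = 0.36). Exons of Mmp19 overlap those of Tmem198b on the opposite strand, which had 406 to 559 counts in a library, and the counting was strand-specific.

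Among the members, Timp3 and Timp1 rose most. Timp1 inhibits most soluble MMPs and also acts as a growth factor. Its level was 109, 90.6, 95.5 and 88.4 CPM in the control. With A1 it was 256, 247, 257 and 254 CPM, and with A1-OVA it was 198, 199, 190 and 194 CPM, so that the 3 groups were fully separate, with A1-OVA between the control and A1. Timp1 rose by 1.40 on the log2 scale with A1 (SE 0.049, adjusted p = 5.49e-16) and by 1.03 with A1-OVA (SE 0.049, adjusted p = 1.14e-13), or 2.64- and 2.04-fold. It was lower with A1-OVA than with A1, by a log2 fold change of -0.38 (SE 0.047, 95% interval -0.48 to -0.28, adjusted p = 2.04e-05). Timp1 lies on the X chromosome within the gene Syn1, which is on the other strand and shares no exon with it.

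Timp3 is bound to the matrix and also inhibits ADAM17 and the aggrecanases of the ADAMTS family. It had 41 to 69 counts in the control libraries, 148 to 188 with A1 and 188 to 249 with A1-OVA. Its level was 2.54, 3.67, 4.27 and 3.14 CPM in the control. A1-treated cells had 13.2, 11.3, 13.6 and 13.7 CPM, and with A1-OVA it was 13.6, 15.8, 13.5 and 15.1 CPM. The control was far below both treatments, which overlapped. Timp3 rose by 1.93 on the log2 scale with A1 (SE 0.12, 95% interval 1.67 to 2.18, adjusted p = 1.13e-11) and by 2.09 with A1-OVA (SE 0.12, 95% interval 1.84 to 2.34, adjusted p = 1.82e-12), or 3.80- and 4.25-fold. The A1-OVA to A1 difference was 0.16 (95% interval -0.04 to 0.37, adjusted p = 0.283).

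Timp2, which both inhibits MMPs and links pro-MMP2 to MMP14, moved least of the inhibitors. Its level was 608, 566, 577 and 574 CPM in the control. With A1 it was 690, 650.3, 662 and 645 CPM, and with A1-OVA it was 606, 609.9, 607 and 586 CPM. All A1 samples were above all others, while control and A1-OVA samples overlapped. It rose by 0.19 on the log2 scale with A1 (SE 0.036, adjusted p = 0.000119), and by 0.16 where upper-quartile scaling replaced TMM (adjusted p = 0.000704). Against the control, A1-OVA differed by 0.05 (95% interval -0.02 to 0.13, adjusted p = 0.224). The A1-OVA level was lower than the A1 level by a log2 fold change of -0.14 (SE 0.036, adjusted p = 0.0158), a call lost without A1 replicate 1 (adjusted p = 0.0514) or without A1-OVA replicate 4 (adjusted p = 0.0587).

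Adamts1 fell most. Its level was 166, 171, 189 and 173 CPM in the control. The A1 samples had 58.9, 71.6, 65.5 and 66.4 CPM, and with A1-OVA it was 64.7, 67.1, 67.3 and 76.2 CPM. Every treated sample was below every control sample, and both treatments overlapped. Adamts1 fell by 1.41 on the log2 scale with A1 (SE 0.057, adjusted p = 6.17e-15) and by 1.34 with A1-OVA (SE 0.056, adjusted p = 1.29e-14), which was 2.66- and 2.53-fold lower. The A1-OVA to A1 difference was 0.07 (95% interval -0.06 to 0.20, adjusted p = 0.48). Its neighbour on chromosome 16 is Adamts5, the other aggrecanase of the pair, with a gap of 53.1 kb between the 2 genes. Adamts5 fell as well, by 1.75 with A1 (SE 0.042, adjusted p = 1.01e-18) and by 1.69 with A1-OVA (SE 0.042, adjusted p = 2.48e-18). Adamts5 went from 205 ± 6.74 CPM in the control to 61.1 ± 2.98 CPM with A1 and 63.5 ± 2.16 CPM with A1-OVA (SD, n = 4 each).

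**Figure D2:**
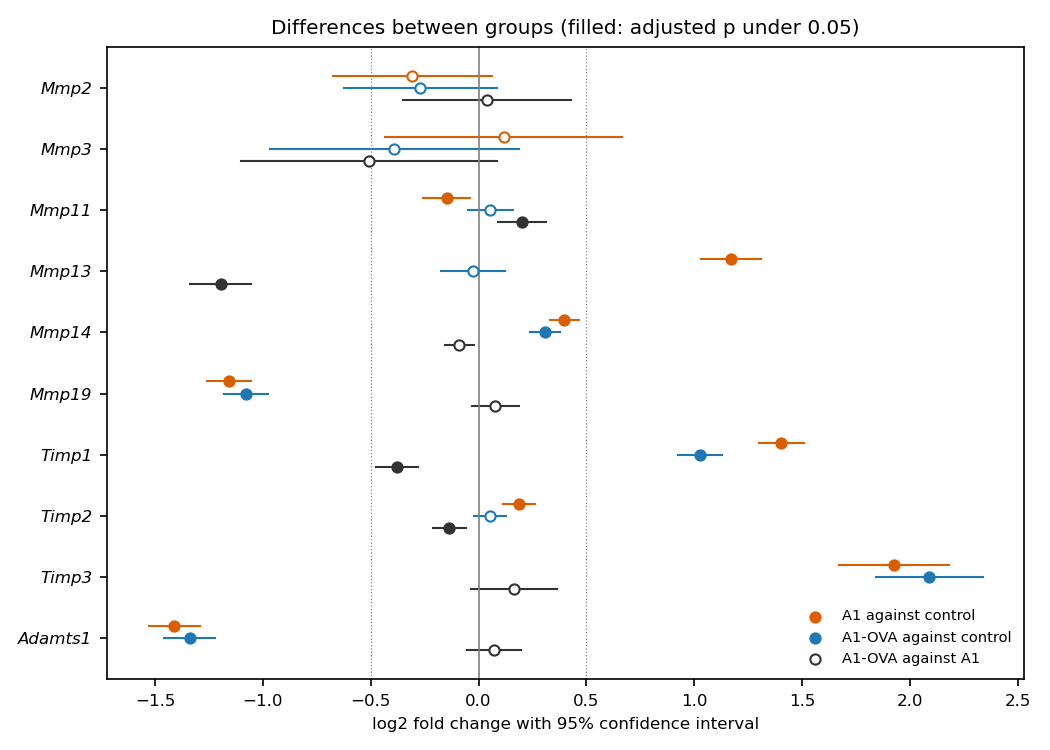
Log2 fold change of each gene with its 95% confidence interval for A1 against control, A1-OVA against control and A1-OVA against A1 (edgeR, n = 4 a group). Filled points passed at an adjusted p under 0.05, dotted lines mark 0.5 in either direction. Mmp13 stands at 1.17 with A1 and at -0.03 with A1-OVA, whereas Timp3 stands at 1.93 and 2.09.

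The next question was how the genes behaved when ovalbumin accompanied A1. Against the control, 5 of the 10 passed the test with A1-OVA, namely Mmp14, Timp1 and Timp3, which rose, and Mmp19 and Adamts1, which fell; 57.6% of all tested genes passed (29.7% higher, 27.9% lower). All but Mmp14 were DEGs, 4 of the 10 against 17.7% of all tested genes. The median log2 fold change of the 10 was 0.01. The A1 and A1-OVA comparisons share the 4 control samples, so their values for a gene are not independent. The direct comparison of A1-OVA with A1 does not set levels against them, but they enter its filter, its scaling and its estimate of the spread. It shares the A1 samples with A1 against control and the A1-OVA samples with A1-OVA against control. Its values are thus not independent of theirs. In the direct comparison 4 of the 10 passed, against 12.9% of all tested genes (6.05% higher, 6.81% lower). Mmp11 was higher with A1-OVA, and Mmp13, Timp1 and Timp2 were lower. Only Mmp13 was a DEG, against 1.2% of all tested genes. The median log2 fold change of the 10 was -0.03. Samples of the compared groups did not overlap for 8 of the 10 genes in A1 against control, for 5 in A1-OVA against control and for 5 in A1-OVA against A1, where the shares among all tested genes were 54.4%, 49.4% and 18.1%.

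Among the 10 members, the inhibitors together outweighed the enzymes per length. Enzymes outside the members are not in this comparison, such as Adam9 at 121.5 RPKM and Adam10 at 69.5 RPKM in the control. Adam9 and Adam10 were lower with A1, at 91.45 and 55.0 RPKM, and with A1-OVA, at 91.16 and 54.59 RPKM. In the control the order was Timp2 (149 ± 4.73 RPKM, SD, n = 4), Timp1 (108 ± 10.4), Mmp14 (77.9 ± 1.75), Adamts1 (32.9 ± 1.89), Mmp19 (27.6 ± 0.699), Mmp13 (15.5 ± 1.49), Mmp11 (13.4 ± 0.445), Mmp2 (0.914 ± 0.0421), Mmp3 (0.645 ± 0.166) and Timp3 (0.418 ± 0.0908). Of neighbours in this order, only Mmp3 and Timp3 overlapped in their samples. With A1, Timp1 stood first, at 285 ± 4.85 RPKM, ahead of Timp2 at 169.8 ± 5.13 RPKM. Mmp13 came next to Mmp14 at 34.8 ± 0.886 RPKM, while Mmp19, Adamts1 and Mmp11 overlapped at 12.4, 12.4 and 12.1 RPKM. With A1-OVA, Timp1 remained first at 219.8 ± 4.82 RPKM, and Mmp13, Mmp11, Mmp19 and Adamts1, at 15.2, 13.9, 13.1 and 13.0 RPKM, each overlapped with the next. Timp3, although it rose most, stayed at 1.59 RPKM with A1 and 1.78 RPKM with A1-OVA. Mmp2 and Mmp3 overlapped in both treated groups.

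The 6 MMP members summed to 135.9 ± 2.43 RPKM in the control, 163.3 ± 2.03 RPKM with A1 and 139.8 ± 1.62 RPKM with A1-OVA (SD, n = 4 each). The A1 samples, at 161 to 166 RPKM, were above all others. The 3 TIMP members summed to 257.5 ± 14.9 RPKM in the control, 456.8 ± 8.72 RPKM with A1 and 376.2 ± 6.15 RPKM with A1-OVA, and the samples of the 3 groups did not overlap. The log2 ratio of summed MMP to summed TIMP RPKM was -0.92 ± 0.10 in the control, -1.48 ± 0.026 with A1 and -1.43 ± 0.027 with A1-OVA. Both treated groups lay below the control range of -1.06 to -0.84. In CPM, which does not divide by length, the ratio was -0.181 to -0.014 in the control, -0.303 to -0.205 with A1 and -0.245 to -0.171 with A1-OVA, so that A1-OVA overlapped the control. These sums are of mRNA and are descriptions without a test. Within the MMP sum, Mmp14 made up 57.3% in the control, 62.8% with A1 and 68.9% with A1-OVA. The share of Mmp13 was 11.4%, 21.3% and 10.9% in that order, and the share of Mmp19 was 20.3%, 7.58% and 9.35%. Timp1 made up 41.9% of the TIMP sum in the control, 62.5% with A1 and 58.4% with A1-OVA.

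**Figure D3:**
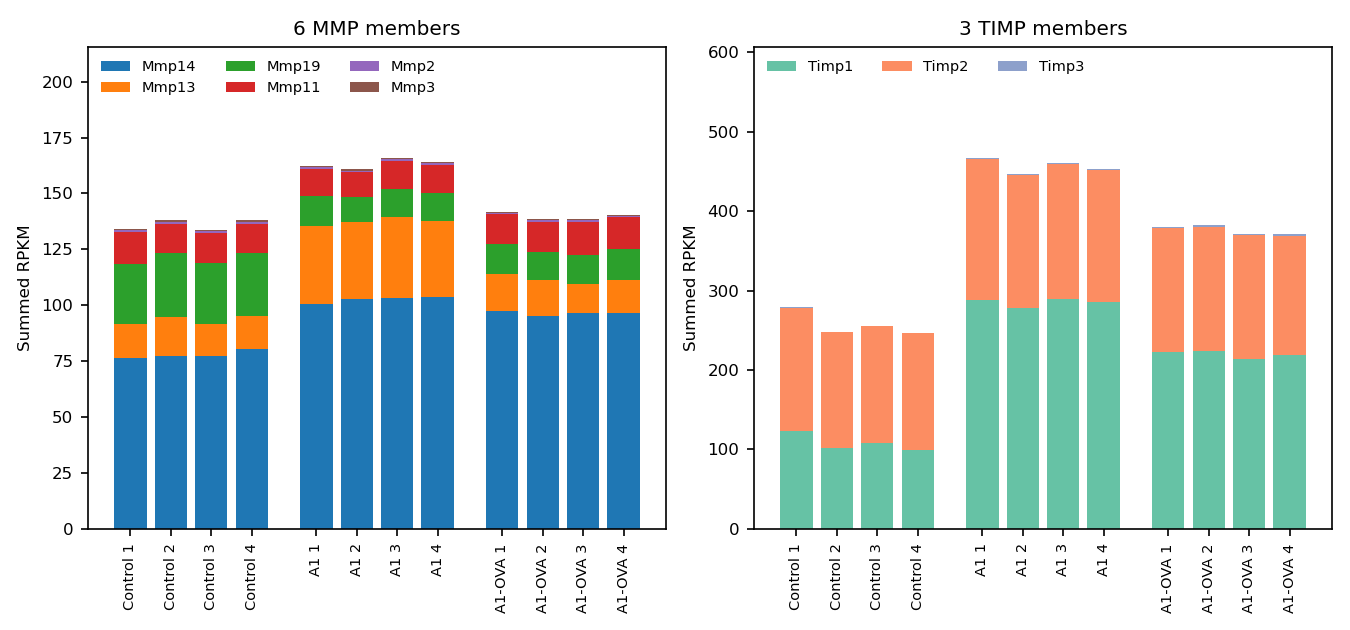
Summed RPKM of the 6 MMP members (left) and the 3 TIMP members (right) in each of the 12 samples, with each gene's part as a coloured segment. The TIMP sum goes from 257.5 RPKM in the control to 456.8 RPKM with A1 and 376.2 RPKM with A1-OVA, and most of the growth is in the Timp1 segment; the left and right axes differ in scale.

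Other genes of the pathway were taken from 4 lists: 17 other MMPs, 18 other ADAMTS genes, 8 ADAM proteases, which shed proteins from the cell surface, and 12 genes of inhibition, activation and clearance. The lists were also chosen with earlier results of these data known, so their shares are descriptions. Of these 55 genes, 29 had enough counts to be tested. With A1, 10 of the 29 rose and 13 fell, 14 of them as DEGs, where 31.7% of all tested genes rose, 31.1% fell and 21% were DEGs. With A1-OVA, 8 rose and 11 fell, 13 of them as DEGs, where 29.7% of all tested genes rose, 27.9% fell and 17.7% were DEGs. The A1-OVA to A1 comparison called 3, Mmp15 and Adam15 as higher and Mmp10 as lower, where 12.9% of all tested genes passed. Of these, Adam15 missed the threshold with DESeq2 (0.16, adjusted p = 0.0512) and without A1 replicate 1, 3 or 4 or A1-OVA replicate 2 or 4 (highest adjusted p = 0.11). DESeq2 gave no adjusted p for Mmp10, which its filter on low counts left out, and called Mmp15 (0.52, adjusted p = 0.0124). The median log2 fold change of the 29 was -0.002, 0.004 and -0.005 in the 3 comparisons, close to that of all tested genes.

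Among the other MMPs, 5 of 17 were tested, of which 1 rose and 3 fell with A1, and 2 rose and 2 fell with A1-OVA, where 62.7% and 57.6% of all tested genes passed. Mmp15, a second membrane-type MMP, fell from 9.48 ± 0.179 CPM in the control to 4.02 ± 0.10 CPM with A1 (log2 fold change -1.24, SE 0.12, adjusted p = 6.72e-09), opposite to Mmp14. With A1-OVA it was 5.78 ± 1.02 CPM (-0.72, adjusted p = 5.16e-06), which was higher than with A1 by 0.52 (SE 0.13, adjusted p = 0.0103). Mmp28 fell by 0.55 with A1 (adjusted p = 9.12e-06) and by 0.62 with A1-OVA (adjusted p = 2.01e-06). Mmp17, anchored to the membrane by a lipid, had 10 to 27 counts in a library and rose by 0.84 with A1-OVA (adjusted p = 0.00345), but did not pass with A1 (0.44, adjusted p = 0.129). Mmp9, gelatinase B, had 0 to 9 counts in a library.

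Of the 18 other ADAMTS genes, 8 were tested, and with A1 3 of these rose and 4 fell, beside 62.7% of all tested genes that passed. With A1-OVA 2 rose and 4 fell, beside 57.6%. Adamts14, which trims procollagen, rose from 11.1 ± 0.997 CPM to 21.2 ± 2.37 CPM with A1 (0.93, adjusted p = 3.38e-08) and to 18.4 ± 2.28 CPM with A1-OVA (0.73, adjusted p = 1.50e-06). Adamts6 rose by 0.83 with A1 (adjusted p = 6.15e-07) and by 0.93 with A1-OVA (adjusted p = 1.09e-07). Adamts7 fell by 0.64 with A1 (adjusted p = 7.21e-06), and its log2 fold change of -0.49 with A1-OVA passed the test but not the DEG threshold (adjusted p = 0.000127). The ADAMTS members called as higher and as lower were thus mixed, and the aggrecanases Adamts1 and Adamts5 had the largest falls. The third aggrecanase tested, Adamts4, rose by 0.23 with A1 (adjusted p = 0.0305); it is named here after its values were seen.

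Of the 8 ADAM proteases, 7 were tested, of which 3 rose and 4 fell with A1, and 3 rose and 3 fell with A1-OVA, beside the same 62.7% and 57.6% of all tested genes. Adam12, a membrane protease of mesenchymal cells, rose from 48.8 ± 1.11 CPM to 123 ± 3.08 CPM with A1 (1.34, SE 0.047, adjusted p = 5.88e-16) and to 117 ± 8.19 CPM with A1-OVA (1.27, adjusted p = 1.70e-15). Adam19 rose by 1.14 with A1 (adjusted p = 7.20e-14) and by 1.02 with A1-OVA (adjusted p = 5.34e-13). Adam8, at 32 to 69 counts in a library, rose by 0.53 with A1 (adjusted p = 0.0186) and by 0.61 with A1-OVA (adjusted p = 0.00626). Its A1-OVA samples overlapped the control samples. In contrast Adam17, which releases TNF and EGF-receptor ligands and is a target of TIMP3, fell from 136 ± 4.77 CPM to 89.3 ± 2.24 CPM with A1 (-0.61, adjusted p = 1.01e-11) and to 89.7 ± 2.58 CPM with A1-OVA (-0.60, adjusted p = 1.20e-11).

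Of the 12 genes of inhibition, activation and clearance, 9 were tested, of which 3 rose and 2 fell with A1, and 1 rose and 2 fell with A1-OVA. With 62.7% and 57.6% of all tested genes passing, these counts do not set the list apart. Reck, a membrane-anchored inhibitor of MMPs, fell from 13.4 ± 0.726 CPM to 6.96 ± 0.445 CPM with A1 (-0.94, adjusted p = 1.11e-08) and to 8.29 ± 0.891 CPM with A1-OVA (-0.69, adjusted p = 5.78e-07), opposite to the TIMPs that rose. Itgb3, an integrin chain that docks MMP2 at the cell surface, rose from 4.13 ± 0.487 CPM to 14.3 ± 1.05 CPM with A1 (1.80, adjusted p = 6.91e-12) and to 14.1 ± 1.71 CPM with A1-OVA (1.77, adjusted p = 8.08e-12). Furin, which activates the membrane-type MMPs and MMP11, did not pass with A1 (0.08, adjusted p = 0.127) or with A1-OVA (0.05, adjusted p = 0.353), and is named after its values were seen. Timp4 had at most 3 counts in a library.

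**Figure D4:**
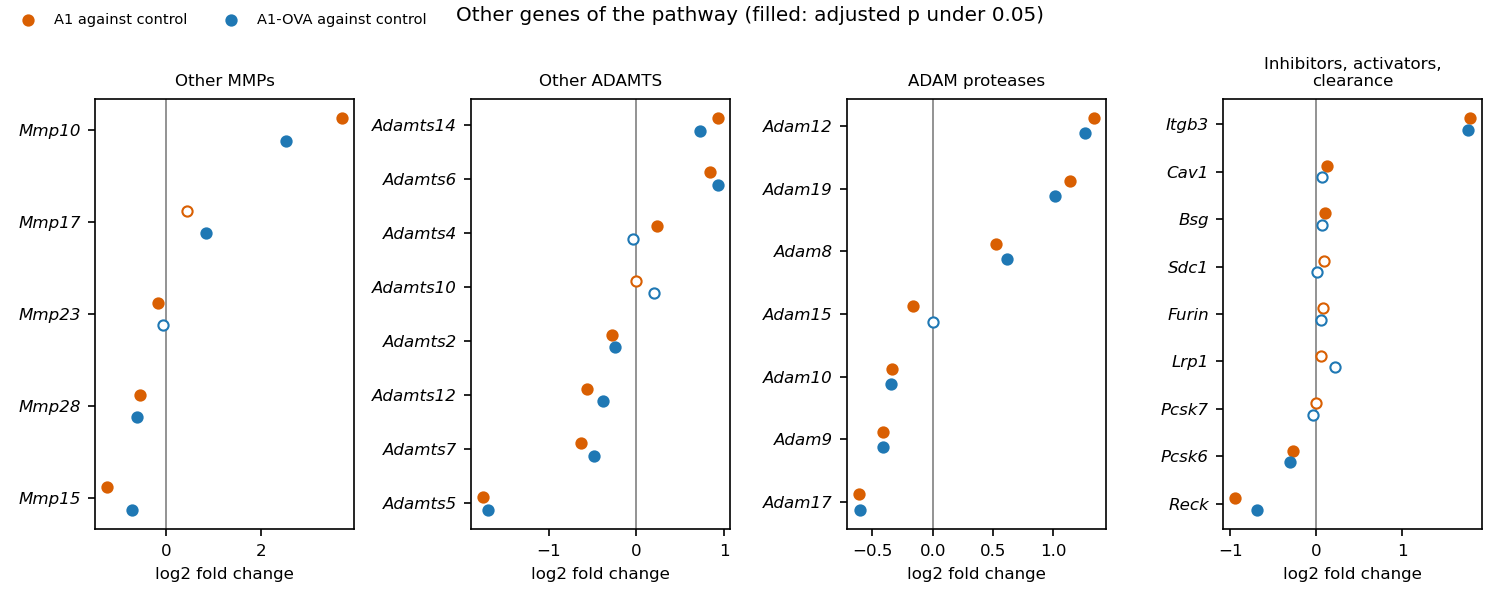
Log2 fold change of the 29 tested genes of the 4 pathway lists with A1 (orange) and A1-OVA (blue) against the same 4 control samples. Filled points passed at an adjusted p under 0.05. Apart from Mmp10, whose values rest on 0 to 3 counts in the control libraries, Adamts5, at -1.75 with A1, and Itgb3, at 1.80, lie farthest out. Axes differ between panels.

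For the 3 members with the largest fold change with A1, the tested genes outside the lists with the most similar log2 CPM over the 12 samples were looked up. For Timp3 these were Lvrn (Pearson r = 0.992), Rnf217 (0.989) and Ipo7 (0.988). For Adamts1 they were Lrba (0.995), Ankrd44 (0.995) and Ppp1r3c (0.994), of which Ppp1r3c had a log2 fold change of -2.98 with A1. For Timp1 they were Ldha (0.996), Mgp (0.995) and Smoc1 (0.995), and each of these 3 had a smaller log2 fold change with A1-OVA than with A1, as Timp1 did: 0.60 with A1 and 0.43 with A1-OVA for Ldha, 2.37 and 1.88 for Mgp, and 2.53 and 1.79 for Smoc1. Mgp codes for matrix Gla protein, an inhibitor of calcification, and Ldha for a lactate dehydrogenase chain. The 12 samples share 3 group levels, so these correlations are descriptions. The genes were picked for their likeness to the member, so the A1-OVA change that they share with Timp1 is no separate result.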

How the data were processed

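RNA was sequenced from 12 mouse MSC samples in 3 groups of 4. Per the labels and the study's methods, polyadenylated RNA was made into strand-specific libraries, bases were called with bcl2fastq 2.20, reads were aligned to GRCm38 with STAR 2.7 and counted with featureCounts 2.0. The authors deposited raw counts per Ensembl gene, not normalized. Symbols, coordinates and exon lengths came from GENCODE M21 (GRCm38), an earlier release than the one counted, which matched 99.53% of 55487 gene identifiers. Every row names a gene.

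From the counts, protein-coding genes passing edgeR's filterByExpr (11314 genes) were scaled by TMM and fitted for all 12 samples together with edgeR 4.0.16 (glmQLFit, glmQLFTest) in R 4.3.3, with Benjamini-Hochberg adjustment over all tested genes. A gene passed at an adjusted p under 0.05, and was a DEG if its log2 fold change was also at least 0.5 in size. Standard errors are the fold change divided by the square root of F. CPM use TMM library sizes, and RPKM divide them by the union of annotated exons. Log2 CPM for correlations used a prior count of 2. No pair of replicates agreed within counting noise, so none was merged as a repeat deposit of 1 library, which does not show that they are independent. The fits were tested on simulated data first, in which 200 of 11243 genes were changed 2-fold in the A1 group. In the data 62.7% of tested genes passed with A1, a setting that the simulation did not cover.

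The 10 genes and the gene lists were chosen with earlier results of these data known. Beyond the members, the text names, in each comparison, at most the 4 largest DEGs of each pathway list with a mean of at least 1 CPM, the genes Mmp7, Mmp8, Mmp9, Mmp10, Mmp12, Timp4 and Reck whatever their outcome, and the 3 most similar genes to each of the 3 members that changed most. Mmp1b, Mmp20, Adam9, Adam10, Adam15, Adamts4 and Furin were named after their values were seen. Alternatives were DESeq2 1.42.0, upper-quartile scaling, other filters, all genes, 2 groups only, a replicate block, a log2 threshold of 1, thinning to 13702348 counts, and leaving out each sample. Protein sequences were not analysed here.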

Additional observations from a re-analysis of the deposited data

Results flagged for a closer look

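Timp2 with A1-OVA and Adam19 in the control were picked out because 1 of a group's 4 samples lay far from the other 3, by Dixon's criterion. Of 72 groups of samples examined for the members and the named genes, 2 met it, fewer than the 5% that chance gives. Timp2 was 586 CPM in A1-OVA replicate 4 and 606 to 610 CPM in the other A1-OVA samples. Adam19 was 22 CPM in 1 control sample and 24.8 to 25.3 CPM in the other control samples.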

How the results depend on the processing

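Of 600 values of the members' log2 fold changes under the alternatives, 585 kept their direction and their side of the threshold, 6 were no longer past it, 2 newly passed it and 7 turned direction. Those that turned were never called: Mmp3 with A1 was -0.023 without control replicate 1 and -0.012 without A1 replicate 2 (-0.023 to 0.285 over single samples left out), Mmp13 with A1-OVA against the control was 0.043 without control replicate 2 and 0.042 without A1-OVA replicate 3 (-0.078 to 0.043), and Mmp2 with A1-OVA against A1 was -0.001 without A1 replicate 1, -0.106 without A1 replicate 2 and -0.06 without A1-OVA replicate 2 (-0.106 to 0.213). Leaving out each sample in turn, 7 to 9 members passed in A1 against control, 5 each time in A1-OVA against control and 3 to 4 in A1-OVA against A1. Of the pathway lists, DEGs with a log2 threshold of 1 numbered 6 with A1, 5 with A1-OVA and 1 between A1-OVA and A1. In that last comparison DESeq2 called 1 list gene and 1 DEG, Mmp15, with no adjusted p for Mmp10, at least 10 counts in every sample left 1 DEG, and leaving out samples gave 1 to 2. On the CPM scale, which does not correct for length, the log2 ratio of summed MMPs to TIMPs was -0.077 in the control, -0.24 with A1 and -0.207 with A1-OVA, and A1-OVA then overlapped the control. The cause was not tested, other than by the construction of the stricter thresholds and of the CPM scale.

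The groups share replicate numbers, but samples of the same number did not deviate together on average (mean r = 0.021 over 12 pairs, range -0.206 to 0.207). The 36 pairs of different numbers ranged from -0.228 to 0.22. Their mean of -0.007 follows from taking deviations from each group's mean, so it is no independent comparison. A1 replicate 2 went with A1-OVA replicates 3 and 4 (r = 0.22 and 0.218) and against A1-OVA replicates 1 and 2 (-0.228 and -0.2). A block by replicate number does not model such a pattern. With the replicate number as a block, 8, 5 and 4 members passed, and Mmp13 had a log2 fold change of 1.172 with A1; the block changed no member's call and moved the list count with A1 from 23 to 22. Depth limits Mmp2, Mmp3, Mmp10, Mmp17 and Adam8, which had few counts.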
